A study of Mus musculus with 502 samples.

Results

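The genes described here are 10 genes that are widely used to recognise monocytes, Lyz2, Ly6c2, Ccr2, Ear2, Plac8, S100a4, Ccl9, Adgre4, Itgam and Ms4a6d. They were picked by symbol, each had its row in the count table, and they made up 10 of its 46603 gene rows. They were read in 502 single cells that had been sorted for surface Cd45, the pan-leukocyte antigen, from kidneys of CD1 mice, an outbred wild type stock, about 3 weeks old. The kidneys had not been perfused, and were dissociated either fresh or after lying intact at 4 °C in HTS-FRS, an organ transplant preservative, for 6 h, 1 day, 2 days, 3 days or 4 days. At each timepoint kidneys of the same mouse were pooled, both of them up to day 2 and only part of that tissue at day 3 and day 4. No label names an animal, and the library pool is known from a number in each label, so that a timepoint within a pool was 1 sample. Pool IM793 held 75 fresh cells, 76 cells after 6 h, 78 after day 2 and 2 after day 4. Pool IM834 held 81 fresh cells, 75 after day 1, 82 after day 3 and 19 after day 4. Pool IM790 held 14 cells after day 4 and none that were fresh.

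Monocytes are blood leukocytes of the bone marrow that enter tissues and can become macrophages and some dendritic cells there. In the mouse, classical monocytes carry much Ly6C at the surface and the chemokine receptor Ccr2, with which they leave the marrow and reach inflamed tissue. Nonclassical monocytes carry little Ly6C, patrol the inner wall of small vessels, the kidney's among them, and depend on the transcription factor Nr4a1. Ly6c2 and Ccr2 are therefore read as classical genes, and Ear2 and Adgre4 as nonclassical ones, while Lyz2, Plac8, S100a4, Ccl9, Itgam and Ms4a6d are shared with other myeloid cells to differing degrees.

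Ly6c2, read as classical, and Ear2, read as nonclassical, have near copies in the genome. Reads were 75 bases long and decide which copy a count belongs to. Adgre4, also read as nonclassical, shared no stretch of 75 bases with another gene in the annotated transcripts. Ly6c2 lies at chr15:75108158-75111970 on the minus strand of GRCm38, and its coding sequence was identical to that of its neighbour Ly6c1 at 384 of 393 bases (97.7%). Ear2, a ribonuclease of the eosinophil-associated family, lies at chr14:44102654-44103534 on the plus strand, and its coding sequence was identical to that of Ear1 at 445 of 468 aligned positions (95.1%). A stretch of 75 bases of coding sequence is given from the last exon of each gene, exon 4 of 4 for Ly6c2 and Ly6c1 (chr15:75108612-75108686 and chr15:75045471-75045545, both minus) and exon 2 of 2 for Ear2 and Ear1 (chr14:44102982-44103056, plus, and chr14:43819240-43819314, minus). The stretch is the window without gaps inside a single exon that differs at the most bases, so that other such windows differ at as many or fewer. Capitals mark the bases that differ between the copies, 2 in the first pair and 7 in the second.
Ly6c2: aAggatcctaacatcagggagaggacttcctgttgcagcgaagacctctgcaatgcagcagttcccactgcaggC
Ly6c1: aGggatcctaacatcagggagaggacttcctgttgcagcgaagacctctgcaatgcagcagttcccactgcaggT
Ear2: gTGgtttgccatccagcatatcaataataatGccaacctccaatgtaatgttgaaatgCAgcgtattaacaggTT
Ear1: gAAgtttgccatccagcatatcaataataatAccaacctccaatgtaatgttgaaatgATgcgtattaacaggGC

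Words of 75 bases were taken singly, although reads were sequenced in pairs. Over the annotated transcripts of GENCODE M21, 9.46% of all 75-base words of Ly6c2 also occurred in Ly6c1, and 23.4% of those of Ear2 occurred in another gene, mostly Ear10. For Lyz2 the share was 5.96%, all of it with Lyz1. Plac8, Ccl9 and Adgre4 shared no word with another gene, and Ms4a6d 0.41% of its words. On the same build Lyz2 lies at chr10:117277331-117282321 (minus), Ccr2 at chr9:124101950-124113557 (plus) and Adgre4 at chr17:55749984-55853662 (plus). Itgam and S100a4 shared 65.2% and 44.8% of their words with Gm49368 and Gm42674, annotations for which the count table had no row. In the counts, Ly6c1 reached 10 reads per 1000000 (rpm) in 26 cells and only 9 of these were among the 77 cells with Ly6c2 at that level. Ear2 and its relatives did not separate: 37 of the 38 cells with Ear1 at 10 rpm or more, all 13 with Ear10 and all 30 with the pseudogene Ear-ps2 were among the 50 cells with Ear2. Ear1 had 1937 counts in all cells together against 22412 for Ear2, and values of Ear2 are uncertain to the extent that reads were shared among the copies.

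A gene is called on in a cell below when it had at least 10 rpm, that is 10 counts per 1000000 counts on genes. Cells had between 1759 and 1895431 counts on genes with a median of 695188, and group medians lay between 417385 (day 4, pool IM834) and 1128166 (day 4, pool IM790). Ptprc, which encodes Cd45, was read in 90.8% of all cells and in 42.1% of the day 4 cells of pool IM834. The 502 cells used 317 pairs of index sequences, 55.8% of which occurred in more than 1 pool and none of which was repeated within a pool. With 1 sample in each timepoint of a pool no test was made, and intervals of shares (exact binomial), of summed counts (exact Poisson) and of differences between shares (Newcombe's method from Wilson limits), all at 95%, cover counting error only and say nothing of the spread between mice. Beside a count of 0 the share it allows is given as 3 cells over the number of cells.

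Lyz2, which encodes the lysozyme of macrophages and granulocytes, was the most common of the 10 genes and was on in 42.8% of the 502 cells. Plac8, a small cysteine-rich protein, was on in 30.3%, Ccr2 in 23.9%, the calcium-binding protein S100a4 in 20.5% and Itgam, the alpha chain of the integrin Mac-1, in 19.1%. Ly6c2 was on in 77 cells, Ms4a6d, a membrane protein of the Ms4a family, in 73, the F4/80 relative Adgre4 in 65, the chemokine Ccl9 in 55 and Ear2 in 50. Most of these calls did not hinge on the limit of 10 rpm, because only 2 cells had Ear2 reads below it, 9 had Ly6c2 reads below it and 8 had Adgre4 reads below it. Lyz2 and Ms4a6d were the exceptions, with 44 and 36 cells below the limit. Of the cells with a Lyz2 read 17.8% held 1 to 3 reads, and of those with an Ms4a6d read 31.2%.

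The fresh cells of the separate pools differed widely in these genes. At least 5 of the 10 genes were on in 32 of 75 fresh cells of pool IM793 (42.7%, interval 31.3% to 54.6%) and in 4 of 81 fresh cells of pool IM834 (4.94%, 1.36% to 12.2%). The median number on per cell was 4 in the former and 0 in the latter. None of the genes was on in 4 fresh cells of pool IM793 and in 49 of pool IM834. For this reason each preserved group is set below against the fresh cells of its own pool, and a change with time across pools cannot be told apart from the difference between pools.

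**Figure D1:**
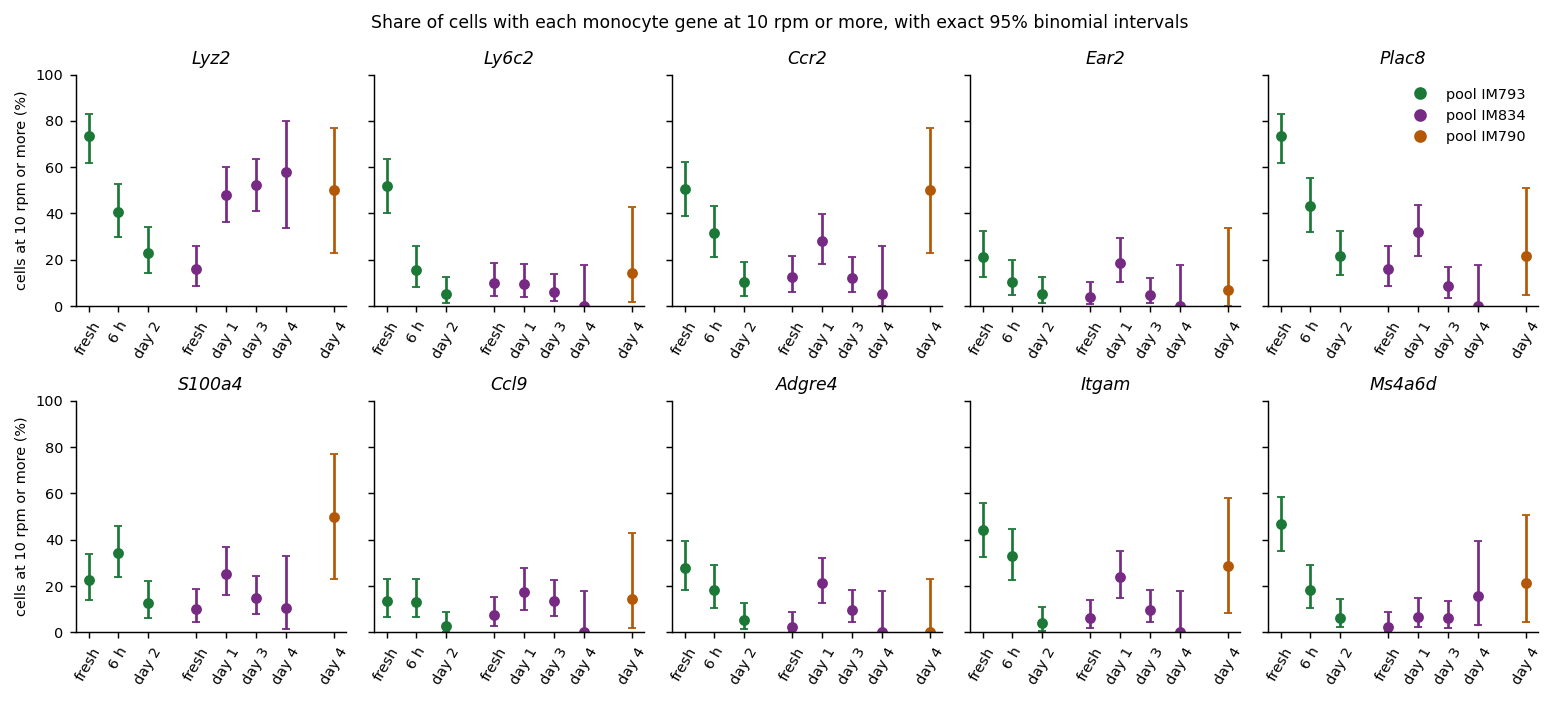
Share of cells (%, y axis) with each gene at 10 rpm or more, by timepoint (x axis) and library pool (colour), with exact 95% binomial intervals; the 2 day 4 cells of pool IM793 are left out. In pool IM793 the shares of Lyz2, Ly6c2, Ccr2, Plac8 and Ms4a6d step down from fresh cells to 6 h and day 2, and in pool IM834 the share of Lyz2 lies higher in all 3 preserved groups than in fresh cells.

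Lyz2 was on in 55 of 75 fresh cells of pool IM793 (73.3%), in 31 of 76 at 6 h (40.8%) and in 18 of 78 at day 2 (23.1%). In pool IM834 the order was the opposite, with 13 of 81 fresh cells (16.05%), 36 of the 75 cells of day 1 (48%), 43 of the 82 of day 3 (52.4%) and 11 of the 19 of day 4 (57.9%). The median over all cells of a group was 3807 rpm in fresh cells of pool IM793 and 0 in those of pool IM834, and the highest single value was 73024 rpm at day 1. The difference to fresh cells was -32.5 percentage points at 6 h (interval -46.1 to -16.9) and -50.3 at day 2 (-62.04 to -35.1), against 31.95 at day 1 (17.5 to 44.8), 36.4 at day 3 (22.1 to 48.7) and 41.9 at day 4 of pool IM834 (18.2 to 61.9). Where Lyz2 was on, its median level ran from 2249 rpm at day 3 to 9312 rpm at day 4 of pool IM790 and was 8898 rpm at 6 h, and the median in fresh cells was 6753 rpm in pool IM793 and 3668 rpm in pool IM834. At 6 h the share of cells was thus lower while the median level in those cells was not. Thinned to 100000 counts a cell, Lyz2 was read in 72.97% of fresh cells and 39.2% of 6 h cells of pool IM793 (74 cells deep enough in each), against 80% of 75 and 42.1% of 76 before thinning.

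Ly6c2, the gene of the Ly6C surface protein of classical monocytes, was on in 39 of 75 fresh cells of pool IM793 (52%), in 12 of 76 at 6 h (15.8%) and in 4 of 78 at day 2 (5.13%). It was on in 8 of 81 fresh cells of pool IM834 (9.88%), in 7 of 75 at day 1 (9.33%), in 5 of 82 at day 3 (6.10%), in none of the 19 cells of day 4, which allows a share of up to 15.8%, and in 2 of 14 day 4 cells of pool IM790. The difference to fresh cells was -36.2 points at 6 h (-48.9 to -21.4) and -46.9 points at day 2 (-58.2 to -33.6), whereas it was -0.54 at day 1 (-10.2 to 9.39) and -3.78 at day 3 (-12.9 to 5.03), where the intervals hold 0. Median levels in the cells with Ly6c2 on were 1191 rpm fresh, 788 rpm at 6 h and 725 rpm at day 2 in pool IM793, and 566, 1223 and 761 rpm in fresh, day 1 and day 3 cells of pool IM834.

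Ccr2, the receptor of the monocyte chemoattractant Ccl2, was on in 38, 24 and 8 cells of the fresh, 6 h and day 2 groups of pool IM793, and in 10, 21, 10 and 1 of the fresh, day 1, day 3 and day 4 groups of pool IM834. Its difference was -19.1 points at 6 h (-33.5 to -3.40), -40.4 at day 2 (-52.5 to -26.3) and 15.7 at day 1 (3.06 to 27.99). The summed level at 6 h, 525 counts per 1000000 counts of the group (CPM) against 531 in fresh cells, nevertheless matched that of fresh cells, since the 24 cells had a median of 1318 rpm and the 38 fresh cells one of 581 rpm. At 6 h fewer cells thus carried Ccr2, at a higher median level.

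The nonclassical genes Ear2 and Adgre4 differed by -10.8 (-22.5 to 0.99) and -9.58 points (-22.7 to 3.92) at 6 h, with intervals that hold 0, and by -16.2 (-27.2 to -5.54) and -22.9 (-34.3 to -11.4) at day 2. Ear2 was on in 16, 8 and 4 cells of fresh, 6 h and day 2 cells of pool IM793, with median levels in those cells of 142.4, 541 and 633 rpm. In pool IM834 it was on in 3 of 81 fresh cells, 14 of 75 at day 1 and 4 of 82 at day 3, and the difference at day 1 was 14.96 points (5.17 to 25.5). Adgre4 was on in 21, 14 and 4 cells in pool IM793 and in 2, 16, 8 and 0 cells in pool IM834, with a difference at day 1 of 18.9 points (9.003 to 29.6). The 0 of 19 cells with Adgre4 at day 4 of pool IM834 allow a share of up to 15.8%.

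Plac8 and Ms4a6d followed Ly6c2 within pool IM793. Plac8 was on in 55, 33 and 17 cells of the fresh, 6 h and day 2 groups, with medians where on of 2262, 1244 and 643 rpm. Ms4a6d was on in 35, 14 and 5 cells. Itgam was on in 33 of 75 fresh cells and in 25 of 76 at 6 h, a difference whose interval holds 0 (-11.1 points, -25.8 to 4.34), and then in 3 of 78 at day 2 (-40.2 points, -51.7 to -27.5). Among the 10 genes only S100a4 had a higher share at 6 h, 26 of 76 cells against 17 of 75, by 11.5 points (-2.86 to 25.3). Ccl9 was on in 10 cells both fresh and at 6 h, and in 2 at day 2. In pool IM834 at day 1 the differences of Plac8 (15.9 points, 2.55 to 28.9), S100a4 (15.5, 3.51 to 27.3) and Itgam (17.8, 6.70 to 29.2) all had intervals above 0, and those of Ccl9 (9.93, -0.52 to 20.8) and Ms4a6d (4.20, -2.98 to 12.4) did not.

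The summed counts of each group were then compared as log2 ratios of CPM, preserved over fresh cells of the same pool, over every gene with at least 50 counts in both sums together. At 6 h, 4 of the 10 genes were lower by 2-fold or more, Ly6c2 (-2.32), Ms4a6d (-1.34), Plac8 (-1.23) and Ccl9 (-1.19), where 21.1% of 13395 genes were that much lower. For Ccl9, 46.9% of the counts of the fresh cells came from 1 cell, and without the cell with the highest count in each group its ratio was -0.74, within 2-fold. None was that much higher, and Ear2 (0.97) and S100a4 (0.92) came closest. At day 2, 8 of 10 were lower by 2-fold or more against 26.7% of 13406 genes, led by Ly6c2 (-4.66), Itgam (-3.91), Plac8 (-3.50) and Ms4a6d (-3.04). Adgre4 (-2.78), Lyz2 (-2.53), Ccl9 (-2.16) and Ccr2 (-1.40) made up the rest, while S100a4 (-0.61) and Ear2 (-0.30) were within 2-fold. Single cells held 54.6% of the Ear2, 53.9% of the Ccr2 and 65.2% of the Adgre4 counts of day 2, and without the cell with the highest count in each group these ratios were -1.01, -2.35 and -4.04, so that Ear2 passed 2-fold. The median over the 10 genes was -0.65 at 6 h and -2.66 at day 2, against 0.19 and 0.20 over all genes tested. These comparisons share their fresh cells, so that the 6 h and day 2 values are not independent.

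In pool IM834 the genes past 2-fold at day 1 and day 3 were all higher. At day 1, 6 of 10 genes were higher by 2-fold or more against 27.9% of 12580 genes, and these were Ear2 (3.34), Adgre4 (3.32), Ccl9 (1.89), Ccr2 (1.68), Plac8 (1.43) and Lyz2 (1.37). Ly6c2 (0.51) was within 2-fold. At day 3, 4 of 10 were higher against 27.4% of 12447 genes, namely Ear2 (4.22), Adgre4 (3.17), Ms4a6d (1.55) and Ccl9 (1.06), and Lyz2 (0.98) lay just inside the limit. On the mean of log2(rpm + 1) over cells only 1 of the 10 was past 2-fold at day 3. Medians over the 10 genes were 1.40 and 0.54, against -0.04 and -0.09 over all genes. The ratios of Ear2 and Adgre4 rested on few cells, since 84.4% of the Ear2 counts of the 81 fresh cells and 67.6% of those of the 82 day 3 cells came from 1 cell, and 80.5% of the Adgre4 counts of fresh cells did. The Ear2 difference at day 3 was large in the sum but 1.17 points in the share of cells (-6.09 to 8.59). Against the fresh cells of both pools together, 3 of the 10 genes were 2-fold or more lower at day 1 and 1 was higher. On that basis 1 was lower and 2 were higher at 6 h, and 6 were lower and 1 higher at day 3. How many of all genes passed 2-fold on that basis, or on the mean of log2(rpm + 1), was not counted.

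At day 4 of pool IM834 the sums of 19 cells separated into groups of genes. Ly6c2, Plac8, Itgam and Adgre4 had no count, which with a floor of 3 counts over the group put their log2 ratios to fresh cells at -8.16, -7.75, -7.81 and -4.98 or lower. Ear2 and Ccl9 had 1 count each, with log2 ratios of -6.34 (counting interval -11.6 to -3.85) and -8.83 (-14.1 to -6.35). By contrast Lyz2 (1.94) and Ms4a6d (3.02) were higher by more than 2-fold, with 54.3% of the Lyz2 counts in 1 cell, and Ccr2 (0.41) and S100a4 (0.50) were within 2-fold. Of the day 4 counts of these last genes, however, 100% and 96.6% came from 1 cell each, and without the cell with the highest count in each group Ccr2 had no count left, with a bound of -7.73 or lower, and S100a4 was at -3.89. In all 6 genes were lower, against 61.3% of 11192 genes, and 2 were higher, against 17.5%. The median over the 10 genes was -5.66 or lower, since a bound enters it, and that over all genes -2.43. On the mean of log2(rpm + 1) 3 of the 10 genes were past 2-fold, 1 lower and 2 higher, and the share of all genes past it was not counted. The 14 day 4 cells of pool IM790 differed from these, with Lyz2 and Ccr2 on in 7 cells each, Itgam in 4, Plac8 and Ms4a6d in 3, Ly6c2 in 2, Ear2 in 1 and Adgre4 in none. Of the 2 day 4 cells of pool IM793, S100a4 was on in both, Lyz2, Ccr2, Ccl9 and Ms4a6d in 1 each and the other genes in neither.

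**Figure D2:**
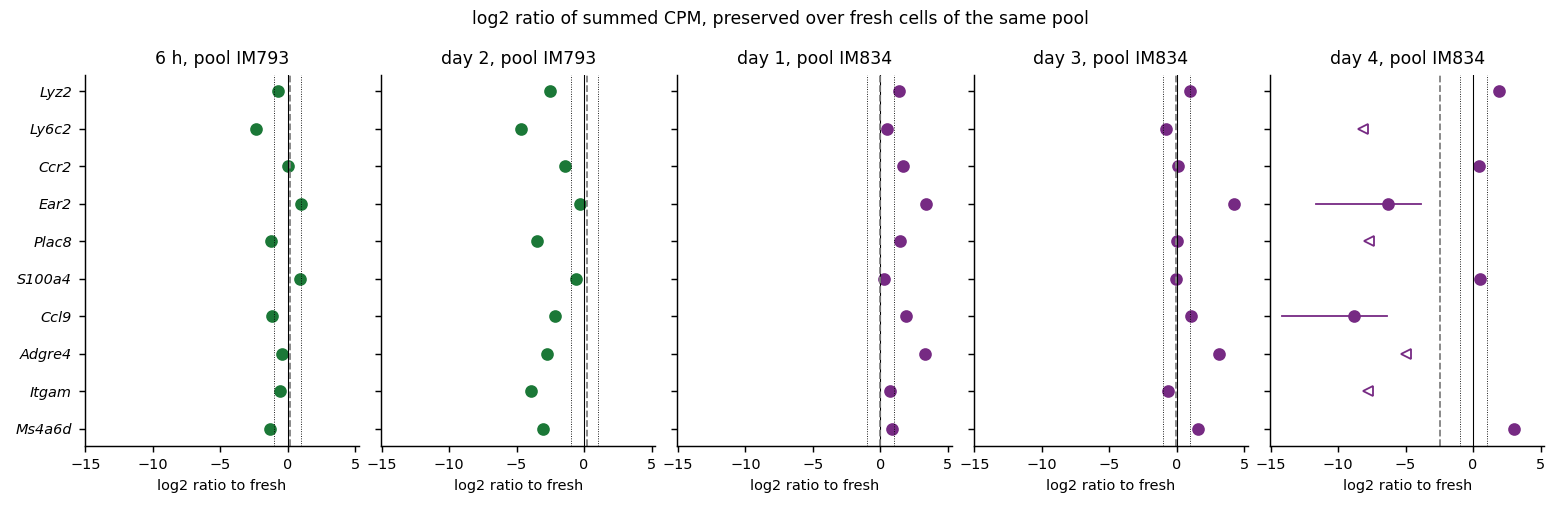
log2 ratio of summed CPM (x axis) for each gene (y axis), preserved over fresh cells of the same pool, with counting intervals as lines; open triangles are bounds for sums of 0, dotted lines mark 2-fold and the dashed line the median of all genes tested. All 10 points but Ear2 and S100a4 lie left of 0 at 6 h, every one does at day 2, every one lies right of 0 at day 1, and at day 4 the 6 genes with no count or 1 count lie far left of Lyz2, Ms4a6d, Ccr2 and S100a4.

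The same 10 genes were then followed by class of cell, because most of them are also expressed outside monocytes. Cells were sorted into classes by genes at 10 rpm or more, the B gate by Cd79a and Cd79b, the T gate by Cd3e, the neutrophil gate by at least 3 of S100a8, S100a9, Csf3r, Retnlg and Cxcr2, the C1q gate of macrophages by C1qa, C1qb and C1qc, and the other lymphoid gate by at least 2 of 8 genes of natural killer and innate lymphoid cells. The B gate took 73 cells, the C1q gate 23.1% of all cells, the T gate 61, the other lymphoid gate 40 and the neutrophil gate 38. A further 50 cells passed more than 1 gate, 45 of them the T and other lymphoid gates alone, and 24.7% passed none. For each of the 10 genes the class without a gate held the largest number of cells with the gene on, with Lyz2 on in 98 of them (79.03%), Plac8 in 84, Ccr2 in 73, S100a4 in 58, Itgam in 55, Ly6c2 in 48, Adgre4 in 46, Ear2 and Ms4a6d in 43 and Ccl9 in 33.

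Single genes reached well beyond that class. Lyz2 was on in 90 cells of the C1q gate (77.6%) and in 22 of 38 of the neutrophil gate (57.9%), with median levels where on of 3319 and 3805 rpm against 9579 rpm in cells without a gate. Itgam was most frequent in the neutrophil gate, in 28 of 38 cells (73.7%). Ccr2 and S100a4 were on in 17 and 23 of the 40 cells of the other lymphoid gate, and Plac8 in 31 of the 73 cells of the B gate (42.5%). Ly6c2 was on in 13 of 38 cells of the neutrophil gate, in 12 of the 50 cells with more than 1 gate and in 0 cells of the C1q gate, which allows up to 2.59%. Ear2 was the most confined, with 43 of its 50 cells in the class without a gate. In the lymphoid classes Lyz2 was rare. It had a read in 8 of 73 B gate cells (10.96%), at up to 3.74 rpm, and was on in none of them, at a median depth of 721709 counts. In the T gate it had a read in 10 of 61 cells (16.4%) and was on in 2, at up to 2813 rpm. Of the 40 cells of the other lymphoid gate 4 had a read and none had it on.

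**Figure D3:**
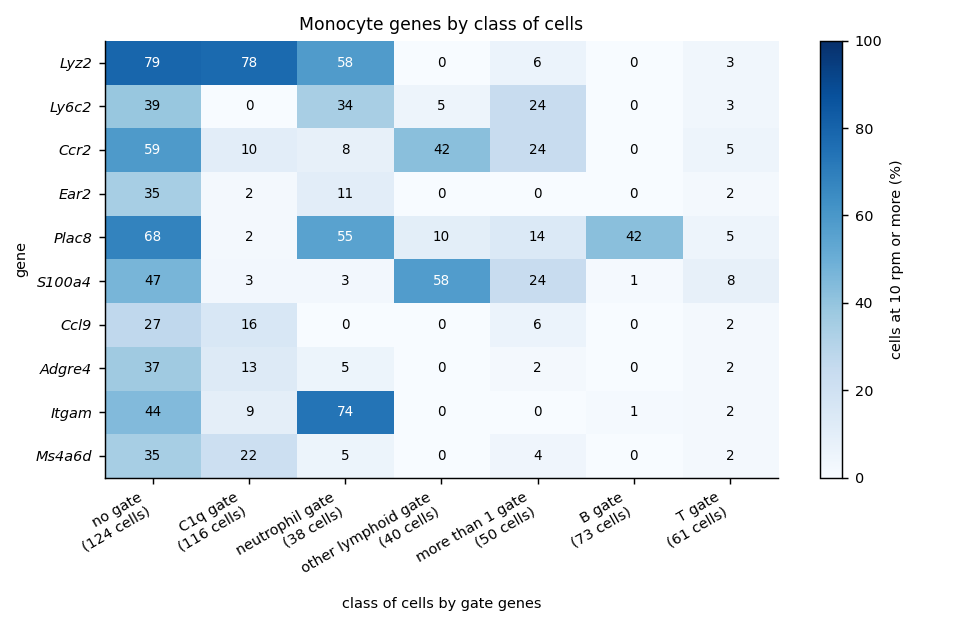
Share of cells (%, colour and printed numbers) with each gene (rows) at 10 rpm or more in the classes of cells set by the gate genes (columns). Lyz2 is on in 79% of cells without a gate and 78% of the C1q gate, Itgam in 74% of the neutrophil gate, Plac8 in 42% of the B gate and S100a4 in 58% of the other lymphoid gate.

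The classes themselves shifted between groups, and this moved with the results above. Cells without a gate made up 41 of 75 fresh cells of pool IM793 (54.7%), 19 of 76 at 6 h (25%) and 9 of 78 at day 2 (11.5%), and 7, 21, 13 and 5 of the fresh, day 1, day 3 and day 4 cells of pool IM834. In the fresh, 6 h and day 2 groups of pool IM793 neutrophil gate cells numbered 16, 14 and 1, and B gate cells 0, 8 and 29. The C1q gate took 8 of 81 fresh cells of pool IM834 (9.88%), 20 of the 75 cells of day 1 (26.7%), 50 of the 82 of day 3 (60.98%) and 10 of the 19 of day 4. Of the cells with Lyz2 on, the C1q gate held 8 of 13 in fresh cells of pool IM834, 14 of the 36 of day 1, 36 of the 43 of day 3 and 9 of the 11 of day 4. The part of these shifts in each gene's difference was not tested.

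Within the cells without a gate some differences stayed and others did not. Lyz2 was on in 38 of 41 fresh cells of pool IM793, in 18 of 19 at 6 h and in 20 of 21 at day 1, so that its lower share at 6 h did not appear inside this class. At day 2 it was on in 4 of 9 cells of the class (44.4%, 13.7% to 78.8%), and in 4 of 7 fresh cells of pool IM834. Ly6c2 in contrast was on in 30 of 41 fresh cells (73.2%, 57.1% to 85.8%), in 6 of 19 at 6 h (31.6%, 12.6% to 56.6%) and in 2 of 9 at day 2, and in 2 of 7 and 5 of 21 fresh and day 1 cells of pool IM834. Ccr2 was on in 31 of 41 fresh, 15 of 19 6 h and 1 of 9 day 2 cells of the class. S100a4 went from 13 of 41 fresh cells (31.7%, 18.1% to 48.1%) to 15 of 19 at 6 h (78.95%, 54.4% to 93.95%), and Ear2 from 14 of 41 to 7 of 19. Ms4a6d was on in 26 of 41 fresh cells and 10 of 19 at 6 h, but in 0 of 7 fresh cells and 3 of 21 day 1 cells of pool IM834.

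Cells were next read for the classical and nonclassical patterns, both of which required Lyz2 on. A cell had the classical pattern with Ly6c2 and Ccr2 on and Ear2 and Adgre4 off, the nonclassical pattern with Ear2 or Adgre4 on and Ly6c2 off, and the mixed pattern, labelled "both" in the plots, with Ly6c2 on together with Ear2 or Adgre4. Only 13 cells had the classical pattern, 42 the nonclassical one and 35 the mixed one, and 412 had none of these. Ly6c2 was on in 77 cells and Ear2 or Adgre4 in 83, and the 35 cells with Ly6c2 and at least 1 of the others were 45.5% of the first set and 42.2% of the second. Among fresh cells of pool IM793 this overlap was 20 of 39 cells with Ly6c2 (51.3%) and 20 of 26 cells with Ear2 or Adgre4 (76.9%). The genes usually read as opposite ends of the monocyte range were thus found together in 35 cells, against 13 cells with Ly6c2, Lyz2 and Ccr2 but neither of Ear2 and Adgre4, and 29 of the 35 mixed cells had Ccr2 on as well.

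Few of the mixed and nonclassical calls lay near the limit, and a larger part of the 13 classical calls did. In the 35 mixed cells Ly6c2 had a median of 1191 rpm, from 61.97 to 7829 rpm, and the lowest values of the higher of Ear2 and Adgre4 were 11.1, 16 and 44.97 rpm. In the 13 classical cells Ly6c2 had a median of 384 rpm, from 10.9 to 3787 rpm, with 18.45 rpm as the next lowest value. Of these cells 2 had Ear2 or Adgre4 reads just below the limit, at 9.62 and 8.70 rpm, the former with Ccr2 at 15.39 rpm. The cells with these values near 10 rpm were all fresh cells of pool IM793. In the nonclassical cells Ly6c2 was at 6.71 rpm in 1 cell and at 0 in every other. A further 29 cells had Ly6c2 on without Ear2, Adgre4 and the classical pattern, and of these 20 had Lyz2 off and the other 9 had Lyz2 on and Ccr2 off. They lay in the neutrophil gate (9 cells) and in the class with more than 1 gate (11 cells) more than in that without a gate (5 cells).

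By group, 10 of the 13 classical cells were fresh cells of pool IM793 (10 of 75, 13.3%, interval 6.58% to 23.2%). At 6 h and day 2 there was 1 each (1.32% and 1.28%), differences of -12.0 points (-21.6 to -3.75) and -12.1 points (-21.6 to -3.88). Against the fresh cells of both pools together these were -5.09 (-10.2 to 1.36) and -5.13 (-10.2 to 1.20), with intervals that hold 0. Without the cells of the B, T and other lymphoid gates the day 2 difference was -11.8 points, and its interval also held 0 (-23.0 to 4.78). Pool IM834 had none, and the 0 of 81 fresh cells allow a share of up to 3.70%. The mixed pattern was found in 20 of 75 fresh cells of pool IM793 (26.7%, 17.1% to 38.1%), 5 of 76 at 6 h (6.58%) and 1 of 78 at day 2 (1.28%), differences of -20.1 points (-31.7 to -8.33) and -25.4 points (-36.4 to -15.0). In pool IM834 it was found in 2, 4, 2 and 0 cells of the fresh, day 1, day 3 and day 4 groups, with intervals of every difference that hold 0. Against the fresh cells of both pools the mixed differences were -7.52 at 6 h (-14.9 to 1.63), -12.8 at day 2 (-19.2 to -5.55), -8.77 at day 1 (-15.9 to 0.11), -11.7 at day 3 (-18.2 to -4.08) and -14.1 at day 4 (-20.4 to 3.33).

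The nonclassical pattern had another course. It was found in 5 of 75 fresh cells (6.67%), 11 of 76 at 6 h (14.5%) and 4 of 78 at day 2 (5.13%) of pool IM793, where the differences of 7.81 points (-2.32 to 18.1) and -1.54 points (-10.1 to 6.71) had intervals that hold 0. Without the cells of the B, T and other lymphoid gates the 6 h difference was 17.8 points (3.43 to 33.9), and against the fresh cells of both pools 9.99 points (2.34 to 19.9), both with intervals above 0. In pool IM834 it was found in 2 of 81 fresh cells (2.47%) and 16 of 75 at day 1 (21.3%), higher by 18.9 points (9.003 to 29.6), or by 22.3 points with an interval that holds 0 (-4.17 to 39.3) without the cells of the lymphoid gates. It was found in 4 of 82 at day 3 (4.88%) and in none of the 19 cells of day 4, which allows up to 15.8%. Of the 42 nonclassical cells 29 had no gate and 11 passed the C1q gate, whereas 32 of 35 mixed and 11 of 13 classical cells had no gate and none of either class passed the C1q gate alone. Ear2 and Adgre4 were on together in 18 of the nonclassical cells and in 14 of the mixed cells. Among cells without a gate that had Lyz2 on, the nonclassical share was 5 of 38 in fresh cells of pool IM793 (13.2%, 4.41% to 28.1%), 8 of 18 at 6 h (44.4%, 21.5% to 69.2%) and 2 of 4 at day 2, and the mixed share 18 of 38 (47.4%, 30.98% to 64.2%), 5 of 18 (27.8%, 9.70% to 53.5%) and 1 of 4. In pool IM834 the nonclassical share of such cells was 1 of 4 fresh (25%, 0.63% to 80.6%), 11 of 20 at day 1 (55%, 31.5% to 76.9%) and 2 of 7 at day 3, and the mixed share 2 of 4, 4 of 20 (20%, 5.73% to 43.7%) and 2 of 7.

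Genes that the patterns had not used were then read in these cells, as lists of other classical genes (7), other nonclassical genes (10), dendritic cell genes (8) and MHC class II genes (5). Most of the other classical genes were on in few cells of the classical pattern. Of 6 of the other classical genes, Chil3 and F13a1 were on in 0 of the 13 classical cells, Fn1 and Vcan in 1 each, Mgst1 in 3 and Hp in 4. In the mixed cells Mgst1 was on in 21 of 35 (60%, 42.1% to 76.1%), Hp in 20 (57.1%), Fn1 in 11 (31.4%), Chil3 in 10 (28.6%) and F13a1 and Vcan in 9 (25.7%). At least 2 of the 7 were on in 4 of 13 classical cells (30.8%, 9.09% to 61.4%), 21 of 35 mixed cells (60%) and 7 of 42 nonclassical cells (16.7%, 6.97% to 31.4%), a minimum that was set after the values had been seen. The intervals of the classical and mixed cells overlap, and the difference was not tested.

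Some classical cells also held genes of dendritic cells, and most held genes of antigen presentation. At least 3 of the 8 dendritic cell genes were on in 4 of 13 classical (30.8%), 1 of 35 mixed and 2 of 42 nonclassical cells, by a minimum also set after the values had been seen. Flt3, the receptor of the dendritic cell growth factor, was on in 6 of 13 (46.2%, 19.2% to 74.9%), against 1 of 35 mixed and 1 of 42 nonclassical cells. Xcr1 and Clec9a, which mark cross-presenting dendritic cells, were on in 4 of 13 each, against 3 and 1 of 35 mixed cells, while Zbtb46 was on in 1 of 13 classical cells and Cd209a and Siglech in none. Within the fresh cells of pool IM793 alone, Flt3 was on in 5 of 10 classical and 0 of 20 mixed cells, and Hp in 3 of 10 and 10 of 20. H2-Aa, a chain of MHC class II, was on in 12 of 13 (92.3%), 12 of 35 (34.3%) and 21 of 42 (50%) of the classical, mixed and nonclassical cells, and the MHC class II invariant chain Cd74 in 13 of 13, 20 of 35 and 32 of 42. The cells with the classical pattern are therefore called by their rule, Ly6c2 and Ccr2 on without Ear2 or Adgre4, and not by a cell type. Csf1r, the growth factor receptor of monocytes and macrophages, was on in 8 of 13 classical, 31 of 35 mixed and 39 of 42 nonclassical cells.

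At least 3 of the 10 other nonclassical genes were on in 29 of 42 nonclassical (69.1%), 29 of 35 mixed (82.9%) and 8 of 13 classical cells (61.5%), by a minimum set in the same way. Single genes differed in this, and Spn was on in 13 nonclassical, 7 mixed and 0 classical cells, Pou2f2 in 24, 21 and 2, Eno3 in 12, 8 and 1 and Cd300e in 10, 4 and 1. Treml4 was on in 27 of 42 nonclassical cells (64.3%, 48.03% to 78.5%), 20 of 35 mixed cells (57.1%) and 5 of 13 classical cells (38.5%), and Ace, the angiotensin-converting enzyme, in 24, 16 and 4. Itgal, the alpha chain of the integrin LFA-1, was on in 30 of 42, 31 of 35 and 12 of 13, and in 37.6% of the cells with none of the patterns. Cx3cr1, the fractalkine receptor, was on in 29 of 42 nonclassical (69.1%, 52.9% to 82.4%) and 9 of 35 mixed cells (25.7%, 12.5% to 43.3%). Within the fresh cells of pool IM793 it was on in 1 of 5 nonclassical and 4 of 20 mixed cells, 20% of each. Nr4a1, on which nonclassical monocytes depend and which is also induced early by many stimuli, was on in 30 of 42 nonclassical, 33 of 35 mixed and 13 of 13 classical cells, and in 41.5% of the cells with none of the patterns. The mixed cells differed little from classical ones in depth, with median counts of 712369 against 734132 and 2808 against 3042 genes read, and the nonclassical cells had a median of 2190.5 genes.

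**Figure D4:**
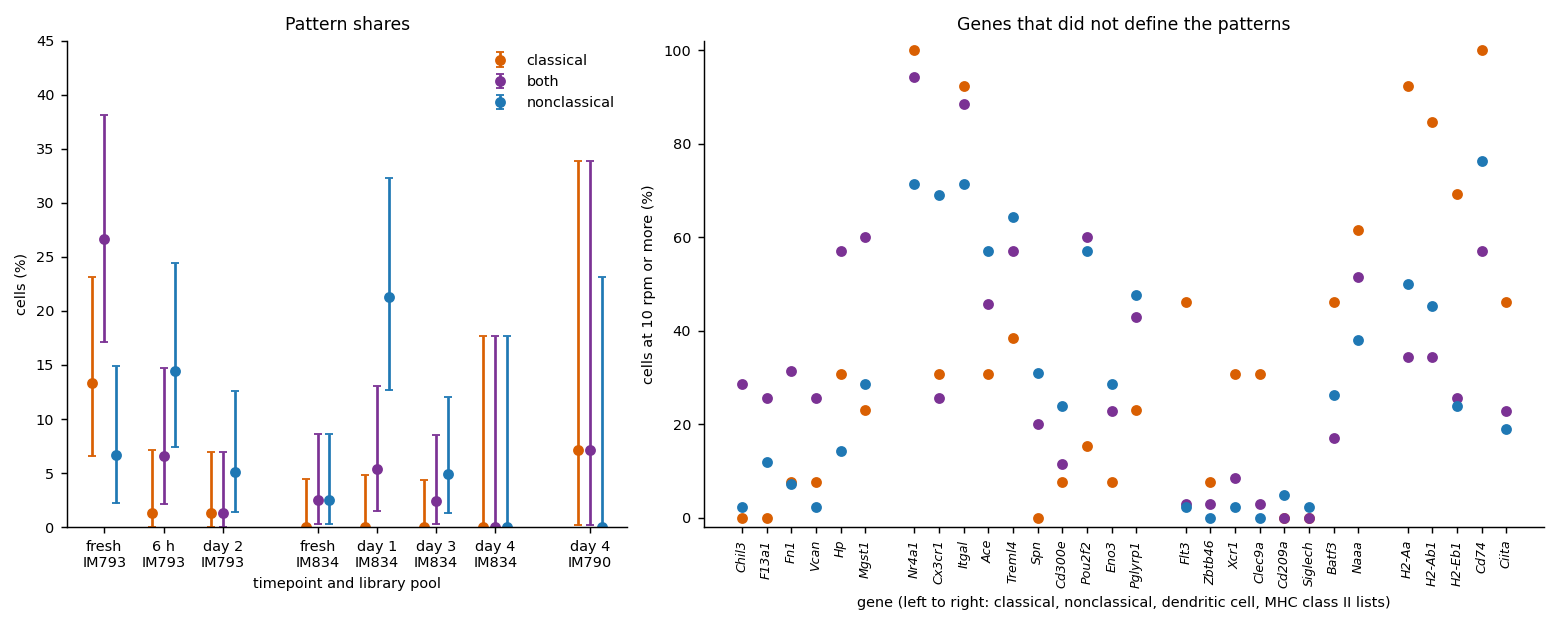
Left, share of cells (%, y axis) with the classical, mixed ("both") and nonclassical pattern by timepoint and pool (x axis), with exact 95% binomial intervals. Right, share of the cells of each pattern (%, y axis) with genes of other lists at 10 rpm or more (x axis), where Chil3 and F13a1 are at 0 in classical cells, Cx3cr1 reaches 69.1% in nonclassical cells and H2-Aa 92.3% in classical cells.

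The lists were also read as sums over groups. Of the 7 other classical genes, 4 were lower by 2-fold or more at 6 h and 6 at day 2, none was higher, and the medians were -1.23 and -4.08, where 21.1% and 26.7% of all genes were that much lower and 27.5% and 31.4% higher. Chil3 and F13a1 had no count at day 2. Of the 10 other nonclassical genes, 4 were lower and 1 higher at 6 h, and 6 lower and 2 higher at day 2, with Treml4 at -1.49 and -5.64 and Cx3cr1 at 0.15 and 1.43. Of the 8 dendritic cell genes 6 were lower and 1 higher at both times. Their medians were -1.89 at 6 h and -4.98 or lower at day 2, since a bound enters the latter. Of 8 general myeloid genes 2 and 4 were lower and none higher, with all 8 below 0 at 6 h. At day 1 of pool IM834, 3 of 6 classical genes tested were higher and 2 lower, while 5 of 10 nonclassical genes were higher and 1 lower, with Ace at 2.97 and Cx3cr1 at 2.21, where 27.9% of all genes were higher and 26.5% lower. At day 3, 5 of 7 classical genes were lower and none higher, and of the 10 nonclassical genes 3 were lower and 2 higher, near the 29.2% and 27.4% of all genes. The general myeloid genes were higher in 8 of 8 at day 1 and 7 of 8 at day 3, and the part of other myeloid cells in these sums was not tested. Cx3cr1 is also a gene of kidney macrophages, and it was on in 51 of 82 day 3 cells, beside the 50 cells of the C1q gate.

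Finally, the genes with the most similar pattern over the 502 cells were found as those with the highest Pearson correlation of log2(rpm + 1) among 10479 genes on in at least 10 cells. The cells share libraries, pools and depth, so the values are descriptions. Ear2 was closest to its own relatives Ear1 (0.93), Ear-ps2 (0.82) and Ear10 (0.81), with which it shares sequence. Lyz2 was closest to Fcer1g (0.75), Tyrobp (0.71) and Ifitm3 (0.71), and Adgre4 to Treml4 (0.63), Ace (0.58) and Clec4a3 (0.56). Itgam was closest to Alox5ap (0.57), Ms4a6d to Cfb (0.58) with Ms4a6c (0.54) next, and Plac8 to Plaur (0.59). Ly6c2 was closest to I830127L07Rik (0.53), Plac8 (0.51) and Gpr141 (0.49). Ccr2 and S100a4 named each other (0.43) beside Clec12a (0.48) and Lgals3 (0.46) for Ccr2 and S100a6 (0.50) for S100a4. Ccl9 had the lowest values, 0.39 for each of Sirpa, Lyz2 and Cd209a.

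Among the 10 genes themselves Ear2 was the most nested, with Lyz2 on in 50 of its 50 cells and Plac8 in 46 (92%). Ccl9, Ms4a6d and Adgre4 were also mostly with Lyz2, in 52 of 55, 68 of 73 and 59 of 65 cells. Ly6c2 was with Plac8 in 63 of 77 cells (81.8%) and with Lyz2 in 57 (74.03%). Ear2 and Adgre4 were on together in 32 cells, 64% of those with Ear2 and 49.2% of those with Adgre4, and were on separately in 18 and 33 cells.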

How the data were processed

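The authors trimmed reads of a protocol adapted from Smart-seq2 to 75 bases, removed duplicates, aligned with STAR to GRCm38 and counted with HTSeq (intersection-strict, strand ignored). What they deposited are raw counts, 1 whole number per gene and cell with no normalization, for 502 cells with at least 1000 reads. For STAR and HTSeq no version is stated in the sources used. The vector row (0.139% of all counts) and 96 ERCC rows (0.000185%) were left out of totals. Values in rpm are counts over a cell's total on genes (1759 to 1895431). Reads carry no molecular identifiers, so intervals cover counting error only. Doublets were not called.

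No test was made, because a timepoint within a pool is 1 sample. Sums were compared as CPM ratios, with a floor of 3 counts for sums of 0, and 2-fold was the limit. The genes, lists, gates and patterns were chosen with earlier results of these data known. Named genes are the 10, genes of the fixed lists and gates, and for each of the 10 the 3 with the highest correlation. Near copies were compared on GENCODE M21 transcripts (Biopython 1.88), where the copy's transcript nearest in coding length and the 75-base window were chosen after values had been seen. Lyz1 and the Ear and Ms4a6 relatives belong to a list of relatives, and some genes of the lists are not reported here by name. Tools were Python 3.11.15, pandas 2.3.3, SciPy 1.17.1, edgeR 4.0.16 (TMM) and DESeq2 1.42.0 (size factors), the last pair for scaling only. Alternatives were other limits for on, thinning to 100000 counts (8 cells left out), other scalings, all fresh cells and leaving out the 18S rRNA gene. The ratio script was tested on simulated data.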

Additional observations from a re-analysis of the deposited data

Results flagged for a closer look

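In 2 of the 10 genes the share of cells with at least 10 rpm lay below that of fresh cells at 6 h and day 2 of pool IM793 and above it at day 1, day 3 and day 4 of pool IM834, and the difference between the pools was not tested. How many of all genes behaved in this way was not counted. Lyz2 differed by -32.5 points at 6 h and -50.3 at day 2 in pool IM793, and in pool IM834 by 31.95 at day 1, 36.4 at day 3 and, in its last group, 41.9 at day 4. Ms4a6d differed by -28.3 points at 6 h and -40.3 at day 2, and by 4.20, 3.63 and 13.3 at day 1, day 3 and day 4, of which only the last has an interval above 0 (1.38 to 35.2). The Ms4a6d pattern depends on the limit of 10 rpm, since the share of cells with at least 1 read differed by -3.11 points at day 1 (-12.8 to 6.72) and -1.36 at day 3 (-11.2 to 8.44). At day 4 that share differed by 4.68 points, with an interval that holds 0 (-8.8 to 27.1). The 2 day 4 cells of pool IM793 were not compared. The timepoints of the pools differ, and the fresh shares from which the differences start were 73.3% and 16.05% for Lyz2.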

How the results depend on the processing

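No test was made, so no fit with pool as a block was made either, and leaving out a replicate did not apply with 1 sample a group. Differences in the share of cells with a read kept within their main intervals in 150 of 150 cases under 10 rpm, 5 reads and thinning, though 12 changed sign. Pattern differences did so in 92 cases and moved beyond them in 13. Those that moved did so against all fresh cells of both pools, where the classical difference was -6.41 points at day 1, 3 and 4 of pool IM834 (those at 6 h and day 2, at -5.09 and -5.13, stayed within the main intervals but came to hold 0) and the mixed difference, recomputed after its values were seen, was -7.52 and -12.8 at 6 h and day 2 and -8.77, -11.7 and -14.1 at day 1, 3 and 4 of pool IM834, or without cells that pass a B, T or other lymphoid gate, where the nonclassical difference was 7.57 at day 2, -6.25 at day 3 and -12.5 at day 4 and the mixed one -9.38 at day 3 and -12.5 at day 4. Without those cells the interval of the classical difference at day 2 also held 0 (-23.0 to 4.78), as did that of the nonclassical difference at day 1 (-4.17 to 39.3). The number of genes past 2-fold held within 1.5 times in 32 of 35 cases. On the mean of log2(rpm + 1) it was 1 at day 3 and 3 at day 4 of pool IM834, against 4 and 8, and against all fresh cells it was 7 at day 3, of which 6 were lower. How many of all genes passed 2-fold under the alternatives was not counted. Of 350 ratios under the alternatives, 69.4% kept within 0.5 on the log2 scale, 29.4% moved further and 4 that had been past 2-fold changed sign. Those 4, against all fresh cells, were Lyz2 (-0.045) and Plac8 (-2.41) at day 1 and Ms4a6d at day 3 (-2.03) and day 4 (-0.56). In all, 17 of 50 ratios changed sign against all fresh cells and all 50 moved by 0.5 or more. On the mean of log2(rpm + 1) 38 of 50 moved and 6 changed sign, and without the cell with the highest count of a gene in each group 19 moved and 3 changed sign. The fresh cells of the pools make up the first alternative. TMM and the size factors moved all ratios by -0.23 to 0.21 and left every count within 1.5 times, with 1 change of sign each. The number of cells limits the day 4 groups of 19, 14 and 2 cells, where shares of 0 allow 15.8% and 21.4% in the first pair.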
